A study of Homo sapiens with 9 samples.

Results

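UHMK1, a serine/threonine kinase also called KIS, was described here together with 5 genes for its known substrates and their partners, SF1, U2AF1, U2AF2, STMN1 and CDKN1B. These 6 genes, of 14943 in the table, were found by symbol, and all 6 passed the filter on low counts. UHMK1 was chosen by its measured change in these same libraries, a higher messenger RNA level with more of a transfected microRNA, so its values are given as a description without a test. The other 5 genes were chosen by their known link to UHMK1 and were tested, though earlier results of these data were known at that choice.

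SH-Sy5y cells, a human neuroblastoma line, were transfected for 48 h with a precursor that acts as a mimic of the microRNA miR-1229-3p, and polyadenylated RNA was sequenced to look for direct targets of that microRNA. Each of 3 groups had 3 libraries. The controls (Ctrl.) were given 40 pmol of a negative control oligonucleotide. At 10 nM, this was cut to 20 pmol and topped up by 20 pmol of mimic, and at 20 nM the cells were given 40 pmol of mimic and 0 pmol of the control oligonucleotide. The groups therefore shared the line, the total amount of transfected RNA and the duration, and 20 nM differed from Ctrl. both by the mimic and by the lack of the control oligonucleotide. All values stem from 1 line, and RNA from a pair of wells was pooled where the study could do so.

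UHMK1 is unusual among kinases in that it carries a U2AF homology motif (UHM), the protein-binding fold by which the splicing factor U2AF recruits its partners. It phosphorylates SF1, the protein that binds the branch point of introns, and thereby favours the complex of SF1 with U2AF2 at 3′ splice sites. It also phosphorylates the cyclin-dependent kinase inhibitor p27 (the product of CDKN1B), which then leaves the nucleus, and stathmin (the product of STMN1), which takes tubulin away from growing microtubules. UHMK1 is abundant in the nervous system, where it is found in RNA granules of neurites. Phosphorylation and protein were not measured here: every value below is a level of messenger RNA.

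A microRNA lowers messenger RNAs whose 3′ untranslated region (UTR) pairs with its seed, bases 2 to 8 from its 5′ end. The mature sequence, from RefSeq on GRCh38.p14 (chr5:179798278-179798300, minus strand, 23 bases), is printed with the seed in capitals, and the matching stretches of 3′ UTRs in GENCODE 44 are printed with the match in capitals and 10 bases on either side. They are shown for CDKN1B, the only gene of the 6 with a match, and for 3 genes around UHMK1 that were lower at 20 nM. These 3 were picked by that result, and CDK2 and CCND1 were not called in a fit with a replicate block. Other listed genes with a match were not called and are not printed, among them NONO with an 8-mer and SF3A1 with 2 matches to a 7-mer.
miR-1229-3p: cUCUCACCacugcccucccacag
CDKN1B, chr12:12720023-12720049, plus strand: cagggattaaGGTGAGAttcaggtttg
PTBP2, chr1:96821206-96821232, plus strand: ccaattttaaGGTGAGAtaattatgag
CDK2, chr12:55972320-55972346, plus strand: ttatgaggcaGGTGAGAgatgtttgaa
CCND1, chr11:69652858-69652885, plus strand: tccttttataGGTGAGAAaaaaacaatc
On the strand of the gene, its longest 3′ UTR was searched for GGTGAGAA (8-mer), for GGTGAGA or GTGAGAA (7-mers, both contained in the 8-mer) and for GTGAGA (6-mer, contained in all of these). UHMK1 held none of them in a 3′ UTR of 7215 bases. SF1 (1300 bases), U2AF1 (146 bases), U2AF2 (648 bases) and STMN1 (900 bases) held none either. CDKN1B held 1 match to a 7-mer in 3266 bases. That 3′ UTR is longer than the whole canonical transcript of CDKN1B (2411 bases), so it belongs to another annotated transcript. Which 3′ UTRs these cells used was not tested. Of 13778 genes with a 3′ UTR of at least 50 bases, 22.6% held a 7-mer or the 8-mer, 4.61% held the 8-mer and 61.6% held none of the matches.

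Between 17.4 and 28.2 M estimated counts were held per library. Replicate 3 of 20 nM stood apart from the other 8 libraries (47.4 on a first principal component on which the others ran from -17.1 to 7.72), and the median standard deviation between replicates was 0.175 at 20 nM against 0.0851 in Ctrl. on the log2 CPM scale. Results that rest on this library are therefore given with and without it. Unless stated, the fit by group without it held 2 surrogate variables (estimated terms for unexplained variation) in place of 1. Markers of noradrenergic neuroblastoma cells, 8 of 8 detected, summed to 4225 to 4454 CPM (counts scaled to a common library total) in Ctrl., 4525 to 4697 at 10 nM and 4405 to 4985 at 20 nM. Of these, TH, the first enzyme of catecholamine synthesis, was near 0 (0.122 to 0.914 CPM over the 9 libraries). Fibroblast markers, 6 of 6 detected, summed to 210 to 277, 207 to 282 and 183 to 261 CPM, below the noradrenergic list but not at 0. Fewer cells of a type and less RNA per cell cannot be told apart in such bulk samples.

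The messenger RNA of UHMK1 (ENSG00000152332, chr1:162497251-162529631, plus strand, GRCh38) was higher in every mimic library than in every control. It was 76.5, 68.5 and 75.6 CPM in Ctrl., 85.2, 84.2 and 86.4 CPM at 10 nM, and 148, 133 and 112 CPM at 20 nM. The 10 nM libraries lay close together just above the controls, and the 20 nM libraries lay above both groups, with replicate 3 as the lowest of them. The group means were 73.6 ± 4.37, 85.2 ± 1.09 and 131 ± 18.2 CPM (SD, n = 3).

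In the model, which adjusts for unexplained variation between libraries, UHMK1 was 1.18-fold higher at 10 nM than in Ctrl. (log2 fold change 0.24, SE 0.054) and 1.94-fold higher at 20 nM (0.95, SE 0.058). The step from 10 to 20 nM was 1.63-fold (0.71, SE 0.056). This second step exceeded the first by 0.46 on the log2 scale (SE 0.093), so most of the difference lay between 10 and 20 nM. The steps were 0.22 and 0.72 without 20 nM replicate 3. By the size of its log2 fold change UHMK1 ranked 903 of 14943 genes from the highest at 10 nM against Ctrl., 107 at 20 nM against Ctrl. and 145 at 20 nM against 10 nM. As these are the libraries on which UHMK1 was chosen, the ranks and the absence of overlap describe the choice and are no evidence for it. For scale, CPM of all 3 libraries lay above those of the other group for 10.1% of genes at 10 nM against Ctrl., 15.2% at 20 nM against Ctrl. and 7.92% at 20 nM against 10 nM.

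**Figure D1:**
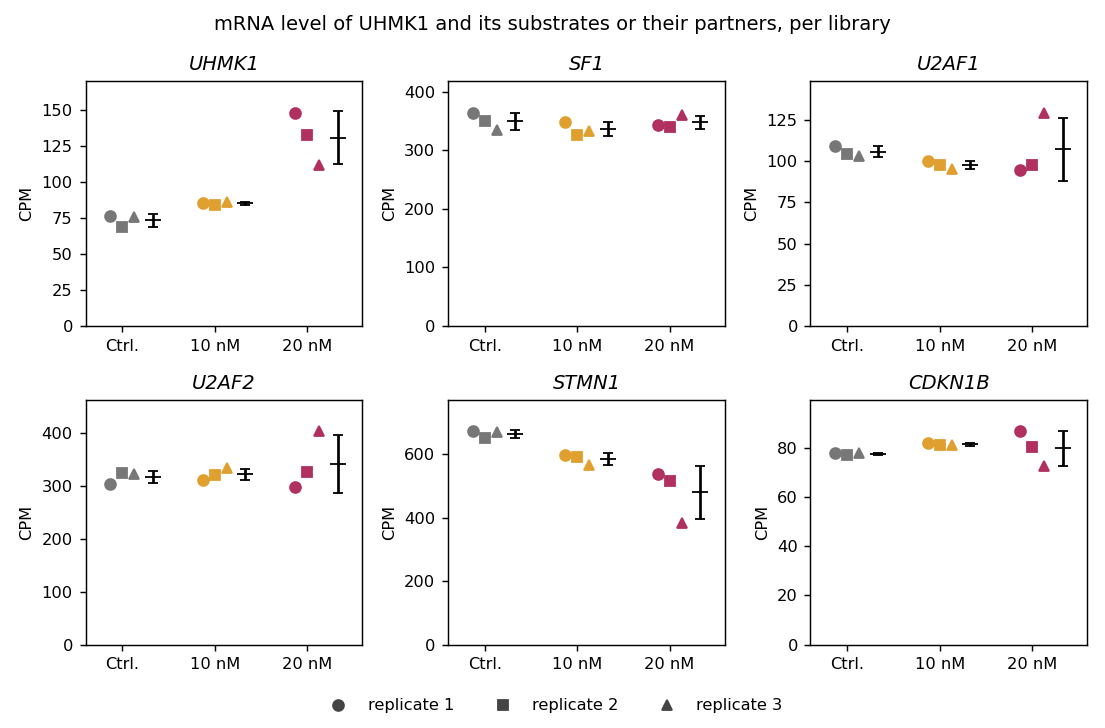
Messenger RNA level (CPM, linear axes from 0, 1 panel per gene) of UHMK1, SF1, U2AF1, U2AF2, STMN1 and CDKN1B in Ctrl., 10 nM and 20 nM. Symbols are libraries (circle, square and triangle for replicates 1, 2 and 3) and bars are the mean ± SD of 3 libraries. The mean of UHMK1 is 73.6 CPM in Ctrl. and 131 at 20 nM, and that of STMN1 is 664 and 479.7. Replicate 3 of 20 nM lies apart from the other 20 nM libraries for U2AF1, U2AF2 and STMN1.

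With all libraries included, no change of SF1 or of either subunit of U2AF passed the threshold of 0.05. SF1 (ENSG00000168066, chr11:64764606-64778786, minus strand) stood at 363, 349.8 and 334 CPM in Ctrl., 349, 326 and 333 CPM at 10 nM, and 343, 339 and 359 CPM at 20 nM. The groups overlapped in every comparison. Its log2 fold change was -0.06 at 10 nM (SE 0.045) and -0.03 at 20 nM (SE 0.052). The 95% interval at 20 nM was -0.14 to 0.09. In edgeR's quasi-likelihood test the adjusted p was 0.589 and 0.802.

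U2AF2, the large subunit of U2AF, which binds the polypyrimidine tract (ENSG00000063244, chr19:55654146-55674716, plus strand), stood at 303, 324 and 322 CPM in Ctrl., 311, 321 and 333 CPM at 10 nM, and 297, 326 and 403 CPM at 20 nM. Replicate 3 of 20 nM lay above every other library, and the rest of the groups overlapped. The log2 fold change at 20 nM was -0.06 (95% interval -0.15 to 0.04, edgeR adjusted p 0.465), although the plain ratio of mean CPM was 0.11 on the log2 scale. U2AF1, the small subunit, which reads the AG at the end of the intron (ENSG00000160201, chr21:43092956-43107570, minus strand), stood at 109, 104 and 103 CPM in Ctrl., 99.8, 97.5 and 95.04 CPM at 10 nM, and 94.5, 97.9 and 129 CPM at 20 nM. All 10 nM libraries and 2 of 3 of the 20 nM libraries lay below every control, and replicate 3 of 20 nM lay above every control. For 9.9% of all genes, all 10 nM libraries lay below every control.

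In the model, U2AF1 had a log2 fold change of -0.16 at 10 nM (SE 0.053, edgeR adjusted p 0.205). At 20 nM this came to -0.15 (SE 0.060, adjusted p 0.126). Without 20 nM replicate 3 the value at 20 nM was -0.14, with an edgeR adjusted p of 0.0127 in a fit in which 2 surrogate variables were estimated and 0.0566, above the threshold, in a fit with 1 as for all libraries. Over all alternatives its adjusted p at 20 nM ran from 0.0127 to 0.943. With all libraries included, the direction at 20 nM depended on the adjustment, since the plain ratio of mean CPM was 0.02 on the log2 scale. That plain ratio rested on replicate 3 of 20 nM (129 CPM), as replicates 1 and 2 (94.5 and 97.9 CPM) lay below every control. The annotation also holds a duplicate of U2AF1 on the same chromosome (chr21:6484623-6499248, minus strand), which GENCODE 44 marks as an artifact. This copy has no row in the table, and whether reads of U2AF1 were assigned to it in the authors' counting was not tested.

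STMN1 was lower at 20 nM, and was the only one of the 5 partners past the threshold with all libraries included. STMN1 (ENSG00000117632, chr1:25884181-25906991, minus strand) stood at 672, 650.1 and 669.96 CPM in Ctrl., 599, 592 and 565 CPM at 10 nM, and 537, 517 and 385 CPM at 20 nM. Each group lay wholly below the one before it, with replicate 3 of 20 nM as the lowest library of all. CPM of all 3 libraries fell below those of the other group for 9.9% of all genes at 10 nM against Ctrl., 13.7% at 20 nM against Ctrl. and 6.32% at 20 nM against 10 nM.

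At 20 nM, STMN1 was lower than in Ctrl. by a log2 fold change of -0.31 (0.809-fold, SE 0.045, edgeR adjusted p 0.00078), and lower than at 10 nM by -0.17 (SE 0.042, adjusted p 0.0495). At 10 nM against Ctrl. it was -0.13 (SE 0.039, adjusted p 0.145). Against the concentration as a number, the slope per 20 nM was -0.38 (SE 0.042, adjusted p 6.18e-05). The first and second steps of STMN1 differed by -0.04 (95% interval -0.18 to 0.11, adjusted p 0.969), and a difference between the steps was not detected. The call at 20 nM against Ctrl. held in 18 of 18 alternative settings, and without 20 nM replicate 3 the log2 fold change was -0.34 (edgeR adjusted p 1.05e-07, or 0.000211 at 1 surrogate variable). The call at 20 nM against 10 nM held in only 6 of 18, over which the adjusted p ran from 0.0012 to 0.392.

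CDKN1B (ENSG00000111276, chr12:12685498-12722369, plus strand), which holds the 7-mer shown above, was not called. It stood at 77.6, 77.2 and 77.9 CPM in Ctrl., 82.0, 81.0 and 81.1 CPM at 10 nM, and 86.6, 80.5 and 72.4 CPM at 20 nM. The 10 nM libraries all lay above the controls, as for 10.1% of all genes, and the 20 nM libraries lay on both sides of them, with replicate 3 the lowest. At 10 nM the log2 fold change of CDKN1B came to 0.09 (SE 0.042, edgeR adjusted p 0.358). At 20 nM it came to 0.12 (SE 0.047, adjusted p 0.112, 95% interval 0.02 to 0.22 before adjustment). Its start overlaps the annotated span of GPR19 on the opposite strand, and whether reads were counted by strand is not stated.

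**Figure D2:**
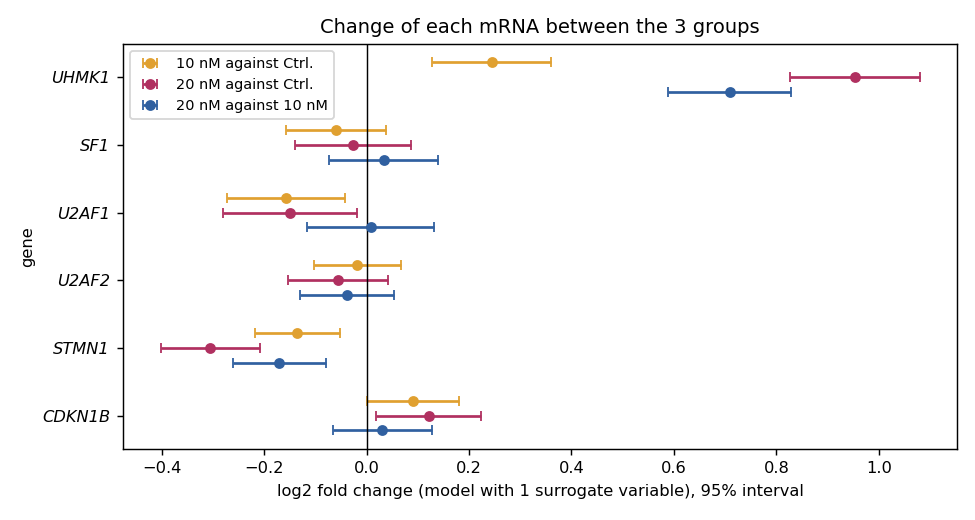
Modelled log2 fold change of each of the 6 messenger RNAs (points) with its 95% interval, not adjusted for the number of genes (bars), for 10 nM against Ctrl., 20 nM against Ctrl. and 20 nM against 10 nM. UHMK1 lies at 0.24, 0.95 and 0.71 and is a description only, STMN1 lies at -0.13, -0.31 and -0.17, and the other 4 genes lie within 0.16 of 0.

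Counted over the 5 partners, 0 of 5 passed the threshold at 10 nM against Ctrl. in edgeR, beside 0.649% of all genes (0.221% higher, 0.428% lower), and DESeq2 also called 0. At an unadjusted p under 0.05 there were 3 of 5, beside 13.9% of all genes. With a replicate block, 0 of 5 and 0.0201% of all genes passed at 10 nM. At 20 nM against Ctrl. 1 of 5 passed, as lower, beside 13.9% of all genes (7.8% higher, 6.08% lower). At 20 nM against 10 nM it was again 1 of 5, beside 2.79% (1.91% higher, 0.883% lower), and in the dose trend 1 of 5, beside 17.5% (9.84% higher, 7.69% lower). STMN1 was the gene called in each. Leaving out 20 nM replicate 3 and keeping 1 surrogate variable, the counts were 1 of 5 at 10 nM against Ctrl. (1.07% of all genes), 1 of 5 at 20 nM against Ctrl. (17.8%), both STMN1 as lower, and 0 of 5 at 20 nM against 10 nM (3.09%). The median log2 fold change of the 5 at 20 nM against Ctrl. was -0.06, beside -0.00016 over all genes. A difference between the second and the first step was called for 0 of 5 in edgeR and in DESeq2, with 0 of 5 at an unadjusted p under 0.05, beside 5.76% of all genes at that threshold and 7 of all genes called (0.0468%, with 0.0335% higher and 0.0134% lower). In the plot of one step against the other, UHMK1 lay above the line of equal steps, STMN1 lay near that line on the negative side, and the other 4 lay near the origin.

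**Figure D3:**
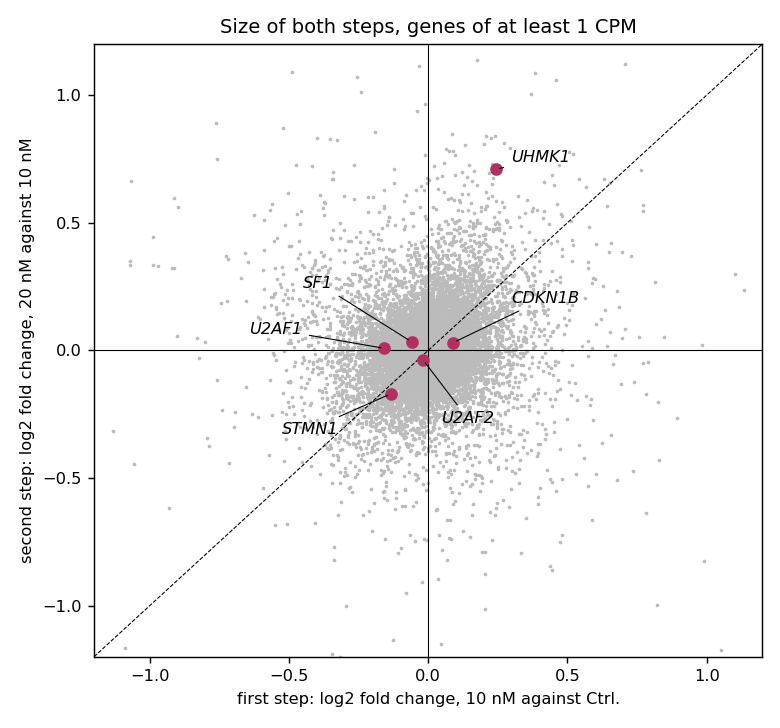
The second step (log2 fold change of 20 nM against 10 nM, y axis) against the first step (10 nM against Ctrl., x axis) for 13683 genes with a mean of at least 1 CPM (grey points, 31 lie outside the axes), with UHMK1, SF1, U2AF1, U2AF2, STMN1 and CDKN1B marked. The dashed line marks equal steps. UHMK1 lies at 0.24 and 0.71, STMN1 at -0.13 and -0.17. Both axes share the 10 nM libraries.

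Levels of different genes were compared per kilobase of the annotated canonical transcript. In Ctrl., UHMK1 was the lowest of the 6 at 8.63 ± 0.512 CPM per kilobase (SD, n = 3, transcript of 8524 bases). CDKN1B followed at 32.2 ± 0.148, SF1 at 106 ± 4.42, U2AF1 at 112 ± 3.46, U2AF2 at 148 ± 5.49 and STMN1 at 460.2 ± 8.42. SF1 and U2AF1 were neighbours that did not differ beyond their spread. At 20 nM, UHMK1 reached 15.4 ± 2.14 CPM per kilobase and remained the lowest, while STMN1 stood at 332 ± 57.3 and remained the highest.

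Among 7 further genes reported as substrates or interactors of UHMK1, PTBP2 alone passed the threshold. PTBP2, a neuronal repressor of exons, fell: it stood at 41.5, 35.5 and 37.9 CPM in Ctrl., 33.5, 34.2 and 34.6 at 10 nM, and 29.0, 26.2 and 22.2 at 20 nM. All 20 nM libraries lay below the 10 nM libraries, and all of those below the controls. Over all genes, 6.32% lay so at 20 nM against 10 nM, 9.9% at 10 nM against Ctrl. and 13.7% at 20 nM against Ctrl. The log2 fold change of PTBP2 was -0.45 at 20 nM against Ctrl. (SE 0.077, edgeR adjusted p 0.00233) and -0.31 at 20 nM against 10 nM (SE 0.074, adjusted p 0.0424), the former in 18 of 18 alternatives and the latter in 9 of 18. These values were -0.47 and -0.31 without 20 nM replicate 3. Its longest annotated 3′ UTR, of 10333 bases, held the 7-mer shown above, at position 7811. The canonical transcript of PTBP2 has only 3321 bases, so this 3′ UTR belongs to another annotated transcript. Whether these cells made that transcript was not tested.

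The other 6 of these genes were not called in the 5 comparisons. NONO, a protein of nuclear paraspeckles, held an 8-mer in its 3′ UTR, yet its log2 fold change at 20 nM was 0.11 (SE 0.051, edgeR adjusted p 0.174). PAM, which amidates neuropeptides and whose cytosolic tail binds UHMK1, was at 0.15 (SE 0.051, adjusted p 0.0693). SF3B1, a core subunit of the U2 particle, was at -0.05 (adjusted p 0.487). Its 20 nM libraries nevertheless all lay below the controls, as did those of 13.7% of all genes. The 20 nM libraries of NONO all lay above the controls, as did those of 15.2% of all genes. KIF3A (a kinesin motor, -0.08), EEF1A1 (the translation elongation factor, 0.08) and PIMREG (a mitotic protein, -0.01) had adjusted p of 0.481, 0.456 and 0.969. Of the 7, 1 was called at 20 nM, a share near the 13.9% of all genes.

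Lists of related genes were described by counts and medians, and the counts at 20 nM against Ctrl. stand beside 7.8% of all genes called higher and 6.08% called lower. Of 7 tested proteins with a UHM other than those above, 0 passed at 20 nM against Ctrl. in edgeR and in DESeq2 (1 at an unadjusted p under 0.05, beside 28% of all genes), with a median log2 fold change of 0.01. HTATSF1, a UHM protein that binds SF3B1, passed in the dose trend alone (0.17, SE 0.053, adjusted p 0.0456) and in 3 of 17 alternatives. Of 10 subunits of SF3A and SF3B, the complexes that anchor the U2 particle next to the site of SF1, 2 rose at 20 nM and 0 fell. SF3B3 rose from 280.3 ± 11.2 to 343 ± 10.0 CPM (SD, n = 3) by a log2 fold change of 0.28 (SE 0.054, adjusted p 0.00459, called in 18 of 18 alternatives), and by 0.23 at 20 nM against 10 nM (adjusted p 0.0358, 11 of 18). SF3B4 rose from 114 ± 1.04 to 127 ± 3.61 CPM, by 0.17 (SE 0.046, adjusted p 0.0279, 12 of 18). With a replicate block its adjusted p was 0.0829, and 1 of the 10 was called higher, beside 7.64% of all genes.

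Of 9 other kinases that act on splicing factors, 1 fell at 20 nM and 2 fell in the dose trend. DYRK1A, whose 3′ UTR of 13827 bases held 7 matches to a 7-mer, fell from 77.6 ± 3.06 to 67.6 ± 4.38 CPM (log2 fold change -0.24, SE 0.064, edgeR adjusted p 0.0271, 14 of 18 alternatives). PRPF4B, a kinase of the spliceosome, fell in the dose trend alone (-0.16, SE 0.045, adjusted p 0.0291), and without 20 nM replicate 3 this was -0.10 with an adjusted p of 0.165. The SR protein kinases and the CLK family were not called. With a replicate block 3 of the 9 fell at 20 nM, beside 6% of all genes called lower in that fit.

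Around p27, 0 of 5 other CDK inhibitors passed at 20 nM in edgeR, against 1 in DESeq2 and 3 at an unadjusted p under 0.05, with a median log2 fold change of -0.26. That median depended on the adjustment. The plain log2 ratios of mean CPM were 0.01 for CDKN1A, 0.22 for CDKN1C, 0.04 for CDKN2A, -0.06 for CDKN2C and -0.13 for CDKN2D. The CPM of 20 nM and Ctrl. overlapped for each of these genes. Without 20 nM replicate 3, in the fit with 2 surrogate variables, 4 of the 5 were called lower, beside 13.9% of all genes. At 1 surrogate variable this was 1 of 5, beside 7.99%. Of 8 cyclins and kinases that p27 binds, 2 fell at 20 nM. CDK2, the main kinase that p27 inhibits, fell from 75.5 ± 4.16 to 64.8 ± 5.21 CPM (log2 fold change -0.29, SE 0.063, edgeR adjusted p 0.00893, 15 of 18 alternatives). CCND1, cyclin D1, stood at 949.7 ± 74.4 CPM in Ctrl. and 877 ± 116 at 20 nM, and its groups overlapped, while the modelled log2 fold change was -0.26 (SE 0.064, adjusted p 0.0171, 14 of 18 alternatives). Without a surrogate variable the value of CCND1 was -0.12 with an adjusted p of 0.502. With a replicate block neither was called (adjusted p 0.0628 for CDK2 and 0.129 for CCND1), and 0 of the 8 passed in edgeR. In that fit 13.6% of all genes passed.

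Of 10 genes for the export, turnover and transcription of p27, 2 fell at 20 nM and 0 rose. CKS1B, the cofactor with which the ubiquitin ligase subunit SKP2 recognises p27, fell from 129 ± 5.71 to 109.9 ± 3.32 CPM (log2 fold change -0.25, SE 0.053, edgeR adjusted p 0.00833, 17 of 18 alternatives). FOXO3, a transcription factor that activates CDKN1B, fell from 187 ± 8.15 to 164 ± 7.70 CPM (-0.21, SE 0.054, adjusted p 0.0236, 13 of 18 alternatives). Its 3′ UTR held 2 matches to a 7-mer. With a replicate block the adjusted p of FOXO3 was 0.0515, and 1 of the 10 was called lower, beside 6% of all genes.

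Of 3 other stathmins tested, 2 fell at 20 nM. STMN2, the neuronal stathmin of growth cones, stood at 639.9, 692 and 629.6 CPM in Ctrl., 617, 654 and 578 at 10 nM, and 529, 535 and 386 at 20 nM, so that the 20 nM libraries lay below all others. Over all genes, 13.7% lay so at 20 nM against Ctrl. and 6.32% at 20 nM against 10 nM. The log2 fold change of STMN2 came to -0.27 at 20 nM (SE 0.061, edgeR adjusted p 0.0114, 18 of 18 alternatives), and without 20 nM replicate 3 it was -0.31. STMN4, at a far lower level (5.46 ± 0.567 CPM in Ctrl. and 3.36 ± 0.517 at 20 nM), fell by 0.58 on the log2 scale (SE 0.17, adjusted p 0.0421, 11 of 18 alternatives). STMN3 was at -0.15 (SE 0.073, adjusted p 0.199). Leaving out 20 nM replicate 3 at 1 surrogate variable, 2 of 3 stathmins, 2 of 9 splicing kinases, 1 of 5 CDK inhibitors, 2 of 8 cyclins and kinases and 2 of 10 genes of p27 export, turnover and transcription were called lower at 20 nM, and 3 of 10 SF3A and SF3B subunits higher, beside 9.78% of all genes higher and 7.99% lower.

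**Figure D4:**
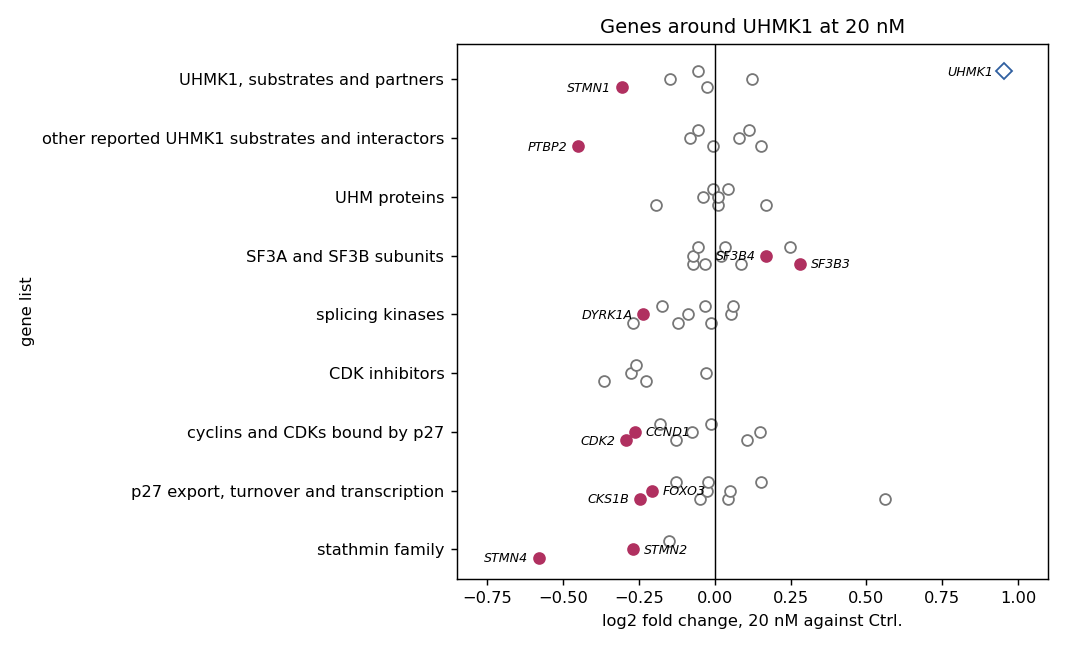
Modelled log2 fold change at 20 nM against Ctrl. (x axis) of each tested gene, 1 row per gene list. Filled circles passed an adjusted p of 0.05 and are named, open circles did not, and the open diamond is UHMK1, which was not tested. UHMK1 lies at 0.95, and the called genes run from STMN4 at -0.58 to SF3B3 at 0.28.

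Matches to the seed were then counted over the 63 of these listed genes that were tested, the 5 partners included and the marker lists left out. Of the 12 genes with a 7-mer or the 8-mer, 5 were called lower at 20 nM (41.7%), namely PTBP2, DYRK1A, CDK2, CCND1 and FOXO3, of which the last 3 were not called with a replicate block. Of the 51 without one, 4 were called lower (7.84%), namely STMN1, STMN2, STMN4 and CKS1B. Over all genes of the table the shares were 10.5% of 3114 with such a match and 4.99% of 10664 without. CDKN1B, NONO, SF3A1, RBM17, RBM23, RBM39 and CLK3 made up the rest of the 12 and were not called. STMN1 was called without carrying a match. A match of letters is a description of the sequence, and the lists were chosen with earlier results of these data known, so these shares were not tested.

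The genes whose pattern over the 9 libraries was most like that of UHMK1, by Pearson's correlation of log2 CPM among 13682 genes, are named as a description. GNA13, the alpha subunit of a heterotrimeric G protein, had r = 0.995 (Spearman's rho 0.933), with 98.4 ± 2.67, 109 ± 2.46 and 148 ± 16.6 CPM in Ctrl., 10 nM and 20 nM (SD, n = 3). CYP51A1, a demethylase of cholesterol synthesis, had r = 0.990 and rho 0.983, with 70.8 ± 2.23 CPM in Ctrl. and 91.3 ± 6.35 at 20 nM. TRIM2, a ubiquitin ligase, had r = 0.986, STOX2 r = 0.982 and TMEM181 r = 0.980. The correlations of these 5 were 0.981 to 0.995 without 20 nM replicate 3. The points share their libraries, and all 5 genes had a second step above the first in the model.

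**Figure D5:**
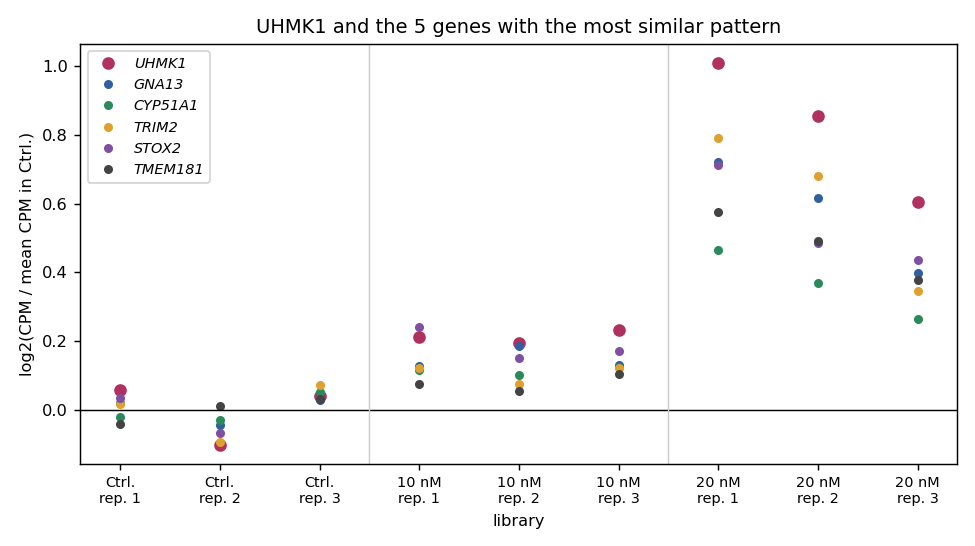
Level of UHMK1 and of the 5 genes most correlated with it in each of the 9 libraries, as log2 of CPM over the mean CPM of Ctrl. (y axis). At 20 nM, replicate 1 is the highest and replicate 3 the lowest library for all 6, and UHMK1 has the highest value of the 6 in each 20 nM library.

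Genes next to UHMK1 on chromosome 1 were not called. C1orf226, 110439 bases before it, had a log2 fold change of -0.18 at 20 nM (edgeR adjusted p 0.425), and UAP1, 32091 bases after it, had 0.10 (adjusted p 0.242). The same held in the other 4 comparisons.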

How the data were processed

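Sample titles gave the group and replicate number of each library. The labels do not say that replicates came from separate cultures, so p-values measure the spread between these libraries. The authors mapped reads with salmon onto GRCh38.p13 with an Ensembl annotation, aggregated transcripts that share a gene symbol and dropped genes of low count. The deposited values are estimated counts per gene (88.8% not whole), not normalized. Strand use and the number of surrogate variables are not given in the sources used here. The authors' comparison tables (log2 fold change, likelihood ratio, p-value) and a corrected log table were not used.

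Counts were rounded and fitted over all 9 libraries with edgeR 4.0.16 (TMM scaling, quasi-likelihood test, R 4.3.3), with surrogate variables from sva 3.50.0 (1 in the fit by group, 2 in the fit by concentration). filterByExpr removed 0 genes. P-values were adjusted by Benjamini-Hochberg over 14943 genes, with a threshold of 0.05. Standard errors were derived from the log2 fold change and its F-statistic. CPM is scaled by TMM and not adjusted for surrogate variables, so ratios of mean CPM can differ from modelled fold changes. Same-numbered libraries deviated together from their group means in all 3 pairs of Ctrl. with 10 nM (r across genes 0.142 to 0.185) and of Ctrl. with 20 nM (0.107 to 0.116), but in 2 of 3 of 10 nM with 20 nM (lowest 0.0288), by a limit of 0.1. The labels do not say what a number marks. Fits with the number as a block are therefore given beside results against Ctrl. that they change. Alternatives included DESeq2 1.42.0, other scalings and filters, a replicate block and leaving out each library.

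Genes named were the 6 described, listed genes past the threshold in any comparison, all reported substrates, the neighbours of UHMK1 and the 5 genes most correlated with it. NONO's match and the genes named for overlap were added on seeing their values. The genes and lists were chosen with earlier results of these data known. Of 14943 genes, 14105 matched GENCODE 44 (GRCh38.p14, which shares its primary coordinates with the authors' build) by identifier and 768 by symbol.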

Additional observations from a re-analysis of the deposited data

How the results depend on the processing

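UHMK1 was higher with the mimic in all alternatives run. Its log2 fold change ran from 0.20 to 0.28 at 10 nM against Ctrl., from 0.83 to 0.99 at 20 nM against Ctrl. and from 0.60 to 0.74 at 20 nM against 10 nM. The slope per 20 nM ran from 0.72 to 0.97, the former without 20 nM replicate 1, and the second step exceeded the first by 0.38 to 0.52. The call of STMN1 held in 18 of 18 alternatives at 20 nM against Ctrl. and in 17 of 17 in the dose trend. At 10 nM against Ctrl., 0 of the 5 partners became 1, STMN1, when only both groups compared were fitted (adjusted p 0.000854), without 20 nM replicate 3 (0.000491), and without that library at 1 surrogate variable (0.0454), the last chosen after seeing the data. At 20 nM against Ctrl., leaving out each library gave 1 to 2 of 5, the second being U2AF1. At 20 nM against 10 nM, 1 of 5 became 0 without a surrogate variable (STMN1 adjusted p 0.392), with only both groups compared (0.0738) and without 20 nM replicate 3 at 1 surrogate variable (0.0591), and leaving out each library gave 0 to 1, with the call kept only without 20 nM replicate 3. The cause was not tested. Calls over all genes ran from 3 to 1318 at 10 nM against Ctrl. (97 as reported), from 954 to 4370 at 20 nM against Ctrl. (2074), from 67 to 1495 at 20 nM against 10 nM (417), from 1236 to 3318 in the dose trend (2620) and from 2 to 146 for the difference of both steps (7). The highest counts of these but the dose trend came without 20 nM replicate 3, where the fit by group held 2 surrogate variables in place of 1. At 1 they were 160, 2656, 462 and 8, and U2AF1 was not called. Adding U2AF1 to a near-identical copy was not run, as that copy has no row in the table.

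When a replicate block replaced the surrogate variables, 0 of 5 partners were called at 20 nM against 10 nM (STMN1 adjusted p 0.196). The block gave 3 calls over all genes at 10 nM against Ctrl., 2039 at 20 nM against Ctrl., 124 at 20 nM against 10 nM, 2444 in the dose trend and 2 for the difference of both steps. At 20 nM against Ctrl., SF3B4, CDK2, CCND1, FOXO3 and LUM were not called with the block, and at 20 nM against 10 nM neither were PTBP2 (0.0876) and SF3B3 (0.114). Differently numbered libraries correlated at -0.170 to 0.0321, all 18 pairs under 0.1. Member counts of 1268 to 19018 per library leave counting error small beside the spread between libraries.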

Other observations

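Over the 9 libraries, log2 CPM of STMN1 correlated with that of UHMK1 at r = -0.665, and at -0.872 without 20 nM replicate 3. CDKN1B was at 0.364 and 0.788, U2AF1 at -0.0876 and -0.656, U2AF2 at 0.0976 and -0.323, and SF1 at -0.0214 and -0.157. These values are a description over libraries that share the groups, and carry no test. Of the marker genes, ISL1 (-0.27) and TH (-2.02) had negative and LUM (0.56) a positive log2 fold change at 20 nM against Ctrl., with edgeR adjusted p of 0.00717, 0.0462 and 0.00969. The value of LUM was -0.01 with a replicate block.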
